A study of Mus musculus with 8 samples.

Results

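Necroptosis is a regulated form of cell death in which the plasma membrane ruptures. The kinase RIPK3 is brought together with RIPK1, ZBP1 or TRIF (encoded by Ticam1) and phosphorylates the pseudokinase MLKL, which then permeabilises the membrane. A complex of FADD, caspase 8 and the FLIP protein encoded by Cflar cleaves RIPK1 and RIPK3 and so holds the pathway in check, and the deubiquitinase CYLD and the mitochondrial phosphatase PGAM5 act as further regulators. Hepatocytes are known for low or silenced RIPK3, and the study of these tumours gives necroptosis in the liver a central place. The genes described here are these executors and regulators, chosen by name: Mlkl, Ripk1, Ripk3, Zbp1, Casp8, Fadd, Cflar, Ticam1, Cyld and Pgam5. Of the 10 genes 9 were measured, out of 22180 genes in all. Ripk1 was not analysed here, since it has no probe set to itself in the annotation.

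The samples were 8 clonal mouse lines of the C57BL/6 strain, 4 of intrahepatic cholangiocarcinoma (ICC, a liver tumour resembling bile ducts) and 4 of hepatocellular carcinoma (HCC, a tumour resembling hepatocytes). All 8 carried the same drivers, c-Myc and NrasG12V on the pCaMIN vector, delivered by focal electroporation for ICC and by hydrodynamic tail-vein injection for HCC, so type and delivery cannot be told apart. ICC9, ICC10, HCC2.1 and HCC2.4 are labelled female, and ICC2.7, ICC2.9, HCC1 and HCC4 male. The 4 lines with a point in their name (ICC2.7, ICC2.9, HCC2.1 and HCC2.4) are the male ICC and the female HCC lines, so any contrast of the type difference between the labelled sexes is also the contrast between these names and the others. The labels do not say what the names stand for. Every line is 1 clone grown without treatment in DMEM with serum and hybridised to 1 array, so dying neighbour cells of a liver were not part of the samples. The labels do not say which lines share an animal or tumour, so each p-value covers the spread of these lines alone, which may be technical in part.

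Levels are log2 signals of the authors' RMA normalization, and array medians lay between 5.02 and 5.09. The 8 columns spanned only 7 directions. The missing direction weighted ICC9 by 0.78 and ICC10 by -0.54 and the other lines by at most 0.185 in size, so ICC9 is close to a weighted combination of the other lines. Markers of cell types were mixed. Of 8 macrophage and leukocyte markers 6 lay below the signal of the median gene (5.66), among them Itgam at 3.66 to 4.51, while Cd68 at 7.31 to 10.21 and Cd14 at 7.28 to 9.51 lay above it in all 8 lines. Ptprc, which defines leukocytes, measured 3.40 to 3.99 and the macrophage gene Adgre1 3.40 to 4.11; these 2 and Cd14 are given with their values already seen. The summed signal of the 8 markers spanned 9.03 to 10.91 (log2) in ICC and 10.39 to 10.76 in HCC lines, and its part in the results was not tested. All 5 endothelial and 4 of 5 hepatocyte markers lay below the median gene. The mean of the 5 hepatocyte markers spanned 4.64 to 4.74 in ICC and 4.84 to 5.19 in HCC lines. No hepatocyte marker by itself separated the types without overlap. Hnf4a reached 7.26 in HCC2.1 and 7.06 in HCC2.4. It measured 5.32 in HCC1 and 5.70 in HCC4, against 5.36 to 5.92 in ICC lines. The mean of the 4 measured bile duct markers spanned 7.02 to 7.96 in ICC and 6.92 to 7.67 in HCC lines, so it overlapped. Limma called no gene of either list between the types, which follow the labels. Signal over background was not assessed.

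Promoter windows are shown for the 3 members whose levels separated the types (Mlkl and Fadd) or the labelled sexes (Cflar) without overlap. Each runs from 250 bases before to 50 bases after a RefSeq start, 5′ to 3′ on the gene's strand, in GRCm38.p6. The Mlkl window is chr8:111338156-111338455 (minus strand), the Fadd window chr7:144582392-144582691 (minus strand) and the Cflar window chr1:58711241-58711540 (plus strand). The Mlkl and Cflar windows are set on starts inside the genes, which span 111311255 to 111338479 and 58711311 to 58758884. Windows around other starts of these genes were not searched. Capitals mark a match to 1 of 5 motifs searched on both strands.
Mlkl: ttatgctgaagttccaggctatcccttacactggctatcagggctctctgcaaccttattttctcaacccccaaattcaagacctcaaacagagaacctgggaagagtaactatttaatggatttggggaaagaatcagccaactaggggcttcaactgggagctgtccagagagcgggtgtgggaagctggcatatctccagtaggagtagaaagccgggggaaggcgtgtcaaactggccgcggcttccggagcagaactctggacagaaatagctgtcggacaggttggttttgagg
Fadd: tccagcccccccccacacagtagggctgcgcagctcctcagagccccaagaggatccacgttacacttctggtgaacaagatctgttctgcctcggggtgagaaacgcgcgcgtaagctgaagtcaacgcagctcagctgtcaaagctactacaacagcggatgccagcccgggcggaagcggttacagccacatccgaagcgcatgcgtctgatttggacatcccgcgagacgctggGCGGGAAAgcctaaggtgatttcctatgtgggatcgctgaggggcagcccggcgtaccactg
Cflar: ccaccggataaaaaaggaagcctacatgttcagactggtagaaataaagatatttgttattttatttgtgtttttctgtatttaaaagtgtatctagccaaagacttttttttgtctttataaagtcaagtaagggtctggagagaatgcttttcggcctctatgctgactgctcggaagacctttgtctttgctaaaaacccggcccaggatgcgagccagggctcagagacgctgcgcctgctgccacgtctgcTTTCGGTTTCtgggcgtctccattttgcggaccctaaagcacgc

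The motifs were the core of the interferon-stimulated response element (GAAA, any 2 bases, GAAA), the interferon-gamma-activated site (TTCNNNGAA), a kappa-B site (GGG, any 2 bases, TTTCC), the E-box bound by MYC (CACGTG) and an E2F site (TTTCCCGC). None of the 5 was found in this 1 Mlkl window, which does not reach the outer end of the gene. The Fadd window held the E2F site, starting 12 bases before the start, a motif found in 1.07% of 32851 windows of 300 bases. The Cflar window held the interferon response core at base 7 counted from its internal start, a motif found in 3.44% of windows. Windows were given for 8 of the 10 genes; among the others, Ripk3 and Ticam1 held the E-box (7.15% of windows), Cyld the kappa-B site (1.63%) and 1 of 2 Ripk1 windows the response core and the gamma-activated site (8.30%). These matches describe the letters of the windows, not binding.

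Mlkl, the executioner of the pathway, stood higher in every ICC line than in any HCC line, although limma did not call the difference over all genes. Mlkl measured 9.28 in ICC9, 9.15 in ICC10, 9.31 in ICC2.7 and 9.77 in ICC2.9. It measured 8.55 in HCC1, 8.56 in HCC4, 8.53 in HCC2.1 and 8.59 in HCC2.4. The HCC lines thus lay within 0.06 log2 units of each other, while the ICC lines spread over 0.62 with ICC2.9 on top. The means were 9.38 ± 0.27 in ICC and 8.56 ± 0.03 in HCC lines (SD, n = 4 each), a log2 difference of 0.82 (SE 0.13, 95% interval 0.52 to 1.12), or 1.77-fold. Limma gave an adjusted p of 0.054 over 22180 genes (unadjusted p = 0.000156), which placed Mlkl 64th by p. That adjusted p is likely too small, since ICC9 is close to a weighted combination of the other lines.

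None of the 9 measured genes was called between the types at an adjusted p under 0.05, against 0.261% of all genes, and 2 of the 9 (Mlkl and Fadd) had an unadjusted p under 0.05, against 14.1% of all genes. The same 2 genes separated the types without overlap, a property of 8.63% of all genes. The median difference of the 9 genes was 0.10 log2 units, against 0.002 over all genes. The Mlkl difference was 0.66 in the female-labelled lines (adjusted p = 0.0402) and 0.98 in the male-labelled lines (adjusted p = 0.108), and the difference between these was not called (-0.33, SE 0.22, adjusted p = 0.441). Each fit within a labelled sex set 2 lines against 2, and there type coincides with the kind of line name. The female-labelled ICC pair is ICC9 and ICC10, which carry most of the missing direction, so its adjusted p is likely too small. Limma called Mlkl with sex as a covariate (adjusted p = 0.0216), without ICC10 (0.0485) and without ICC2.9 (0.69, adjusted p = 0.0377), but not without ICC9 (0.135), ICC2.7 (0.121), HCC1 (0.0757), HCC4 (0.0806), HCC2.1 (0.159) or HCC2.4 (0.135). Nor was it called with the missing direction in the model (0.14), with a random block for each pair of equal type and sex (0.232) or with each such pair averaged (0.914). Fewer cells expressing a gene and less RNA per cell cannot be told apart in these bulk values.

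**Figure D1:**
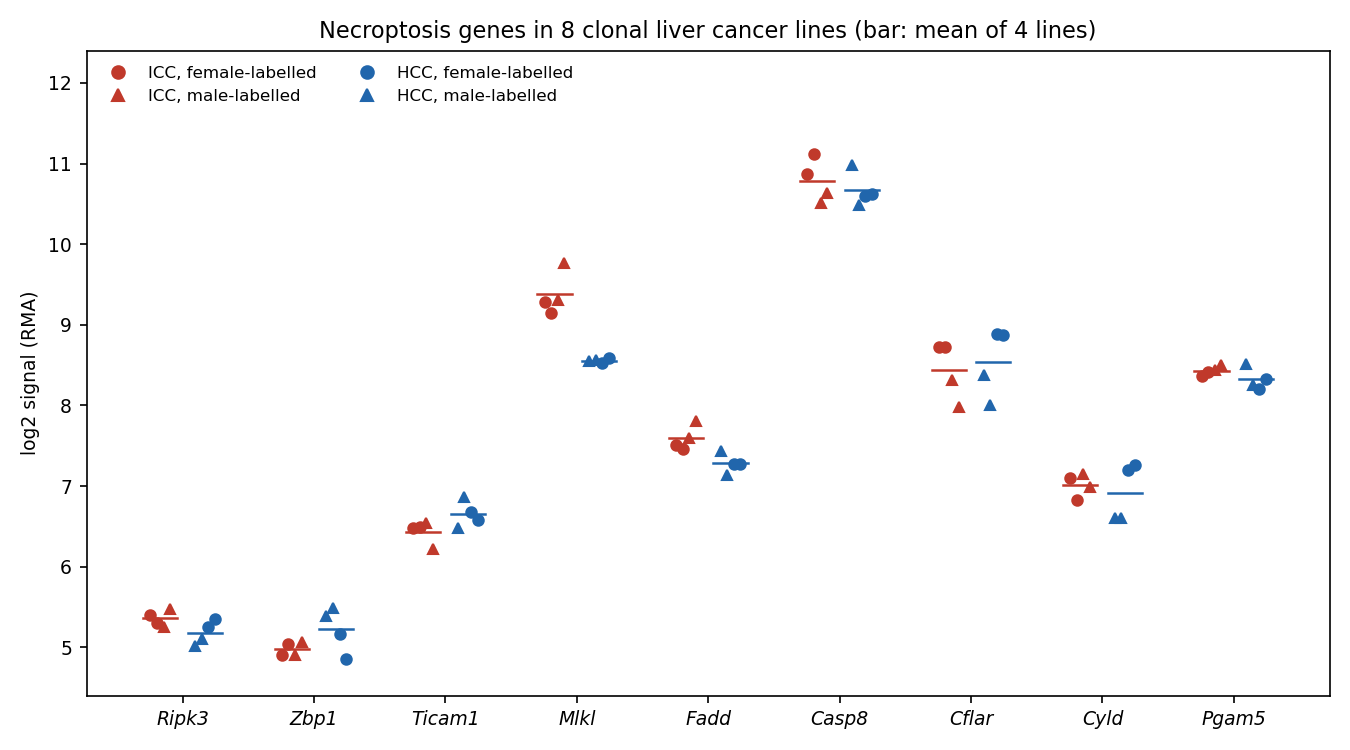
Log2 signal of the 9 measured necroptosis genes (x axis) in the 4 ICC lines (red) and 4 HCC lines (blue); circles are female-labelled and triangles male-labelled lines, and bars are means of 4 lines. Mlkl at 9.15 to 9.77 in ICC against 8.53 to 8.59 in HCC is the widest gap between the types, while Cflar splits by labelled sex within both types.

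**Figure D2:**
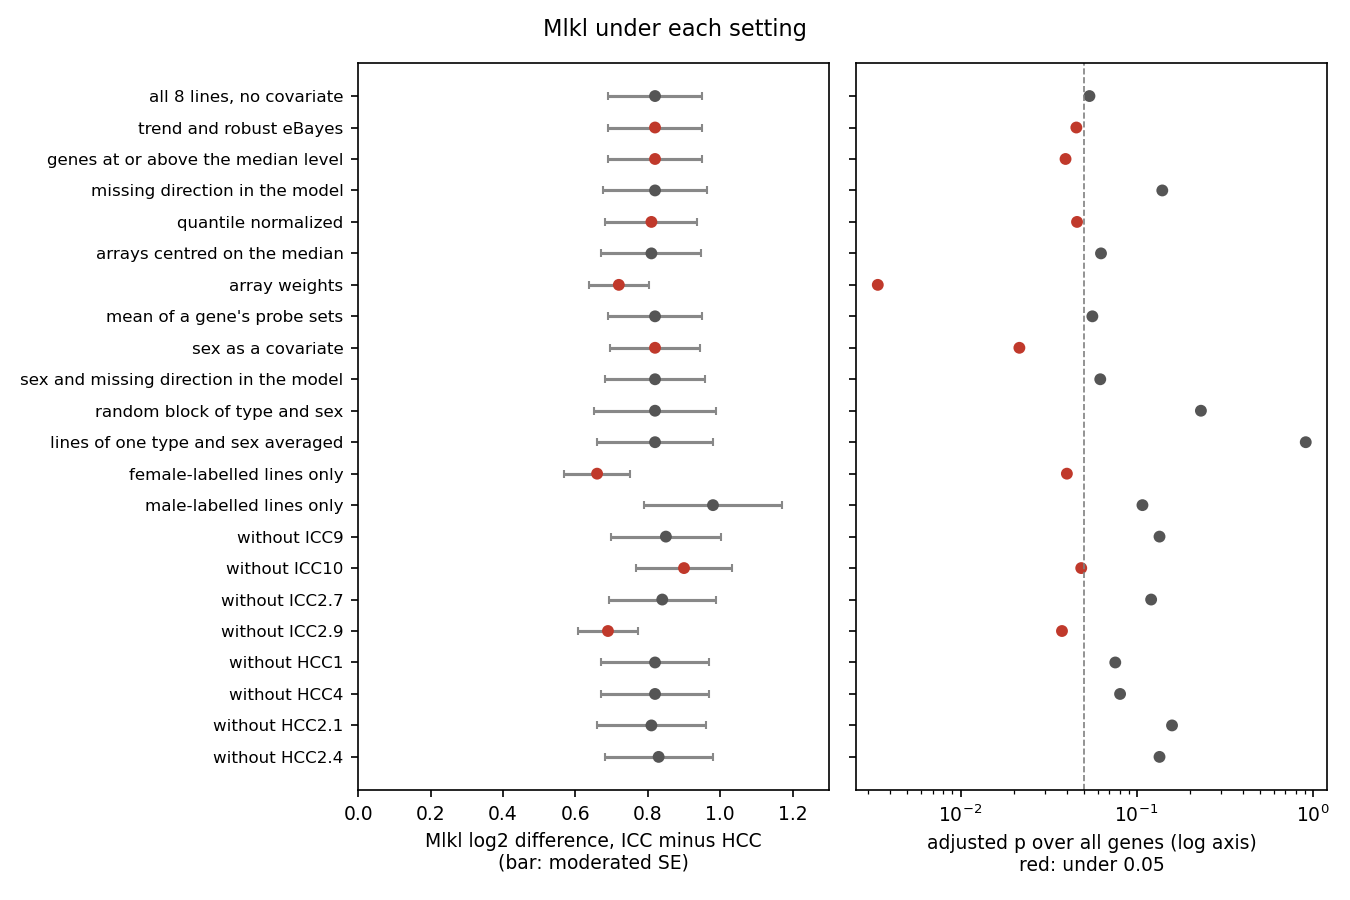
Mlkl difference between ICC and HCC lines (left, log2, bars are moderated SE) and its adjusted p (right, log axis, dashed line at 0.05) with all lines and under each alternative setting, red where limma called it. The difference stayed between 0.66 and 0.98, while the adjusted p ran from 0.00339 with array weights to 0.914 with lines of one type and sex averaged.

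Ripk3, the kinase that activates MLKL, and the genes Zbp1 and Ticam1 upstream of it overlapped between the types, and Ripk3 and Zbp1 gave signals below the median gene. Ripk3 measured 5.40 in ICC9, 5.30 in ICC10, 5.25 in ICC2.7 and 5.48 in ICC2.9, and 5.02 in HCC1, 5.10 in HCC4, 5.25 in HCC2.1 and 5.35 in HCC2.4. Both HCC lines labelled male lay below all other lines, and the female-labelled HCC lines lay inside the ICC range. The difference was 0.18 (SE 0.10, 95% interval -0.05 to 0.40, adjusted p = 0.466), so an ICC level up to 1.32-fold that of HCC lay within the interval. The mean Ripk3 signal over the 8 lines, 5.27, was below that of the median gene, where probe sets can be close to background. Probe sets differ in how strongly they bind, so this ranks signals and not transcript numbers.

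Zbp1, a sensor of Z-form nucleic acid that recruits RIPK3, measured 4.91 in ICC9, 5.04 in ICC10, 4.91 in ICC2.7 and 5.06 in ICC2.9. In HCC lines it measured 5.39 in HCC1, 5.49 in HCC4, 5.16 in HCC2.1 and 4.85 in HCC2.4, the last being the lowest of all 8. The types therefore overlapped through HCC2.4 alone. The difference was -0.24 (SE 0.14, 95% interval -0.56 to 0.07, adjusted p = 0.473), and at a mean of 5.10 Zbp1 too lay below the median gene.

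Ticam1, which encodes the adaptor that links Toll-like receptors 3 and 4 to RIPK3, measured 6.22 (ICC2.9) to 6.54 (ICC2.7) in ICC and 6.48 (HCC1) to 6.86 (HCC4) in HCC lines. HCC1 equalled ICC9 at 6.48, and 3 of 4 HCC lines lay above all ICC lines. The difference was -0.22 (SE 0.11, 95% interval -0.47 to 0.04, adjusted p = 0.422). The receptor Tlr3 itself measured 6.48 in ICC9, 6.39 in ICC10, 5.43 in ICC2.7 and 5.93 in ICC2.9, and 5.47 in HCC1, 4.89 in HCC4, 6.30 in HCC2.1 and 6.26 in HCC2.4. Tlr3 was thus higher in every female-labelled than in any male-labelled line, while Ticam1 gave no such split.

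Fadd, the adaptor that joins death receptors to caspase 8, was the other gene whose types did not overlap. It measured 7.51 in ICC9, 7.46 in ICC10, 7.60 in ICC2.7 and 7.81 in ICC2.9, against 7.44 in HCC1, 7.14 in HCC4 and 7.27 in both HCC2.1 and HCC2.4. The gap was narrow, since HCC1 lay 0.02 below ICC10. The difference was 0.32 (SE 0.11, 95% interval 0.08 to 0.55, unadjusted p = 0.0157, adjusted p = 0.238). Over the 8 lines Fadd and Mlkl had a Pearson correlation of 0.91 and Fadd and Ticam1 one of -0.92, as descriptions over lines that include pairs of one type and sex.

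Casp8, the protease that restrains necroptosis and starts apoptosis, differed more between lines of one type than between the types. It measured 10.87 in ICC9, 11.12 in ICC10, 10.51 in ICC2.7 and 10.64 in ICC2.9, and 10.98 in HCC1, 10.49 in HCC4, 10.60 in HCC2.1 and 10.62 in HCC2.4. HCC1 and HCC4, both labelled male, lay 0.49 apart. The difference between types was 0.11 (SE 0.16, 95% interval -0.24 to 0.47, adjusted p = 0.793), with 0.38 in female- and -0.16 in male-labelled lines, a contrast that was not called (0.55, SE 0.25, adjusted p = 0.269).

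Cflar, which encodes the caspase 8-like inhibitor FLIP, followed the labelled sex of the lines and not the tumour type. It measured 8.73 in ICC9 and ICC10, 8.89 in HCC2.1 and 8.88 in HCC2.4, all female-labelled. The male-labelled lines stood at 8.31 in ICC2.7, 7.98 in ICC2.9, 8.38 in HCC1 and 8.0 in HCC4, all below the female-labelled ones. The means were 8.81 ± 0.09 and 8.17 ± 0.21 (SD, n = 4 each), a log2 difference of 0.64 (SE 0.11), or 1.56-fold, which limma called with type in the model (adjusted p = 0.0263). The 4 female-labelled values are not independent, since ICC9 is close to a weighted combination of the other lines. Without ICC9, limma called 146 genes between the labelled sexes instead of 653. Between the types Cflar differed by -0.10 (SE 0.24, 95% interval -0.65 to 0.45, adjusted p = 0.893). Of all genes, 2.94% were called between the labelled sexes and 8.76% separated them without overlap; Cflar was the 1 of 9 members to do either. Counting only genes higher in female-labelled lines, these shares were 1.48% and 4.41%.

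The lines of one type and labelled sex form pairs, so sex and a shared source of each pair cannot be told apart. The Cflar call was lost with each such pair averaged (adjusted p = 0.412) or as a random block (0.0619), with the missing direction in the model (0.0744), and without ICC9 (0.115), ICC10 (0.0655), ICC2.9 (0.075), HCC2.1 (0.09) or HCC2.4 (0.0866), with a difference of 0.58 to 0.65 in each. Cflar and Casp8 are neighbours on mouse chromosome 1, with 0 protein-coding genes between them in the RefSeq table, yet their levels had a correlation of only 0.34 over the 8 lines.

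**Figure D3:**
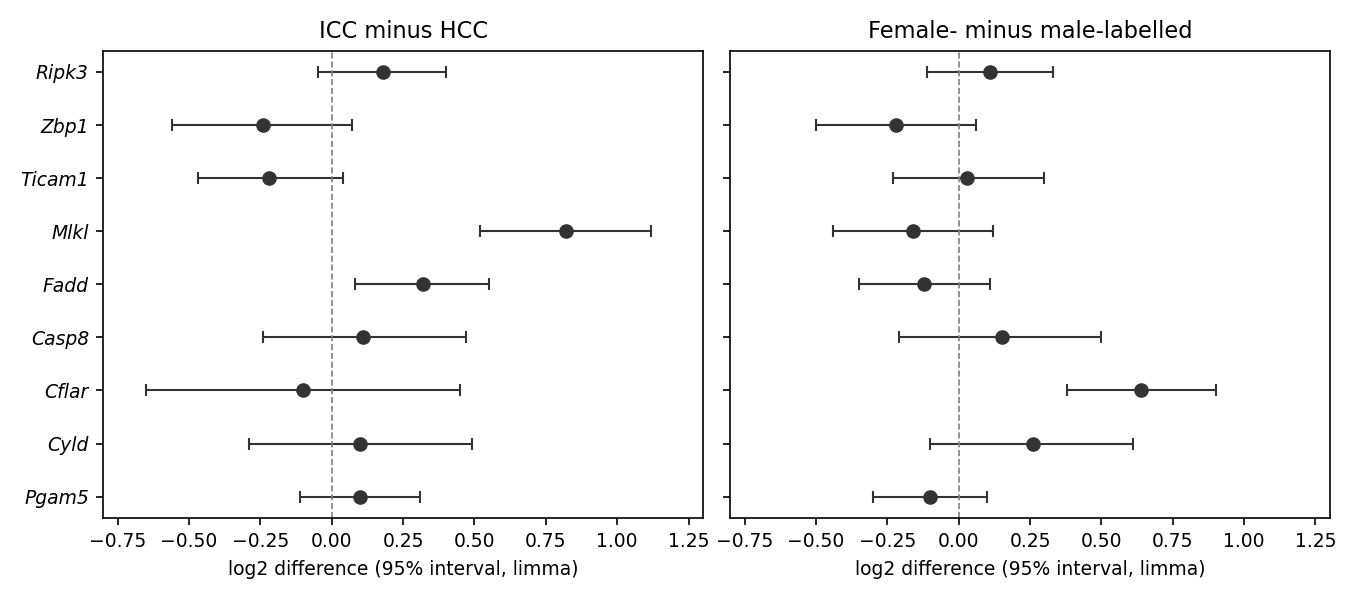
Log2 differences of the 9 genes with 95% intervals from limma, between ICC and HCC lines (left) and between female- and male-labelled lines with type in the model (right). On the left the intervals of Mlkl (0.52 to 1.12) and Fadd (0.08 to 0.55) lie above 0; on the right only that of Cflar (0.38 to 0.90) does, before adjustment over genes.

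Cyld, the deubiquitinase that strips ubiquitin chains from RIPK1, split the HCC lines. The male-labelled HCC1 and HCC4 both stood at 6.61, but the female-labelled pair reached 7.20 (HCC2.1) and 7.26 (HCC2.4). The ICC lines lay between these at 7.10 in ICC9, 6.83 in ICC10, 7.15 in ICC2.7 and 6.99 in ICC2.9. The difference between types was 0.10 (SE 0.17, 95% interval -0.29 to 0.49, adjusted p = 0.844), made up of -0.27 in female- and 0.46 in male-labelled lines. The contrast between these had the smallest unadjusted p of the 9 genes (-0.72, SE 0.18, unadjusted p = 0.00409) but was not called (adjusted p = 0.121), and it cannot be told apart from the contrast between the 2 kinds of line name. That contrast called 0% of all genes by limma. At an unadjusted p under 0.05 stood 4467 (20.1%), and 1 of the 9 members, Cyld, was among them. The count of 0 depended on the missing direction. With that direction in the model limma called 255 of 22180 genes but none of the 9 members. The Cyld contrast was then -0.83 (adjusted p = 0.0925).

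Pgam5, a mitochondrial phosphatase first placed downstream of RIPK3, varied least. It measured 8.36 in ICC9, 8.41 in ICC10, 8.44 in ICC2.7 and 8.50 in ICC2.9, and 8.52 in HCC1, 8.25 in HCC4, 8.20 in HCC2.1 and 8.33 in HCC2.4. The highest and the lowest line were both HCC. The difference was 0.10 (SE 0.09, 95% interval -0.11 to 0.31, adjusted p = 0.664). Pgam5 was the 1 member with a second probe set, which measured 7.27 to 7.49 in ICC and 7.25 to 7.52 in HCC lines and overlapped between the types as well.

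The genes most like the 4 members of widest range were sought by Pearson correlation over the 8 lines among 2195 genes at or above the median level with a range of at least 1 log2 unit. Mlkl was most like Mpdz (r = 0.959), Cmss1 (0.956) and Serpinh1 (0.954), a collagen chaperone that measured 9.40 to 11.62 in ICC and 5.95 to 6.41 in HCC lines. Fadd was most like the mitotic kinesin Kifc1 (0.990), Apip (0.987) and the replication factor Cdc45 (0.987). Cflar was most like the Notch ligand Jag1 (0.988), Sema3c (0.982) and Pitpnc1 (0.981), and Cyld like B4galt6 (0.958), Sash1 (0.952) and Gfra1 (0.943). These values are the highest of many computed and describe only these 8 lines.

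**Figure D4:**
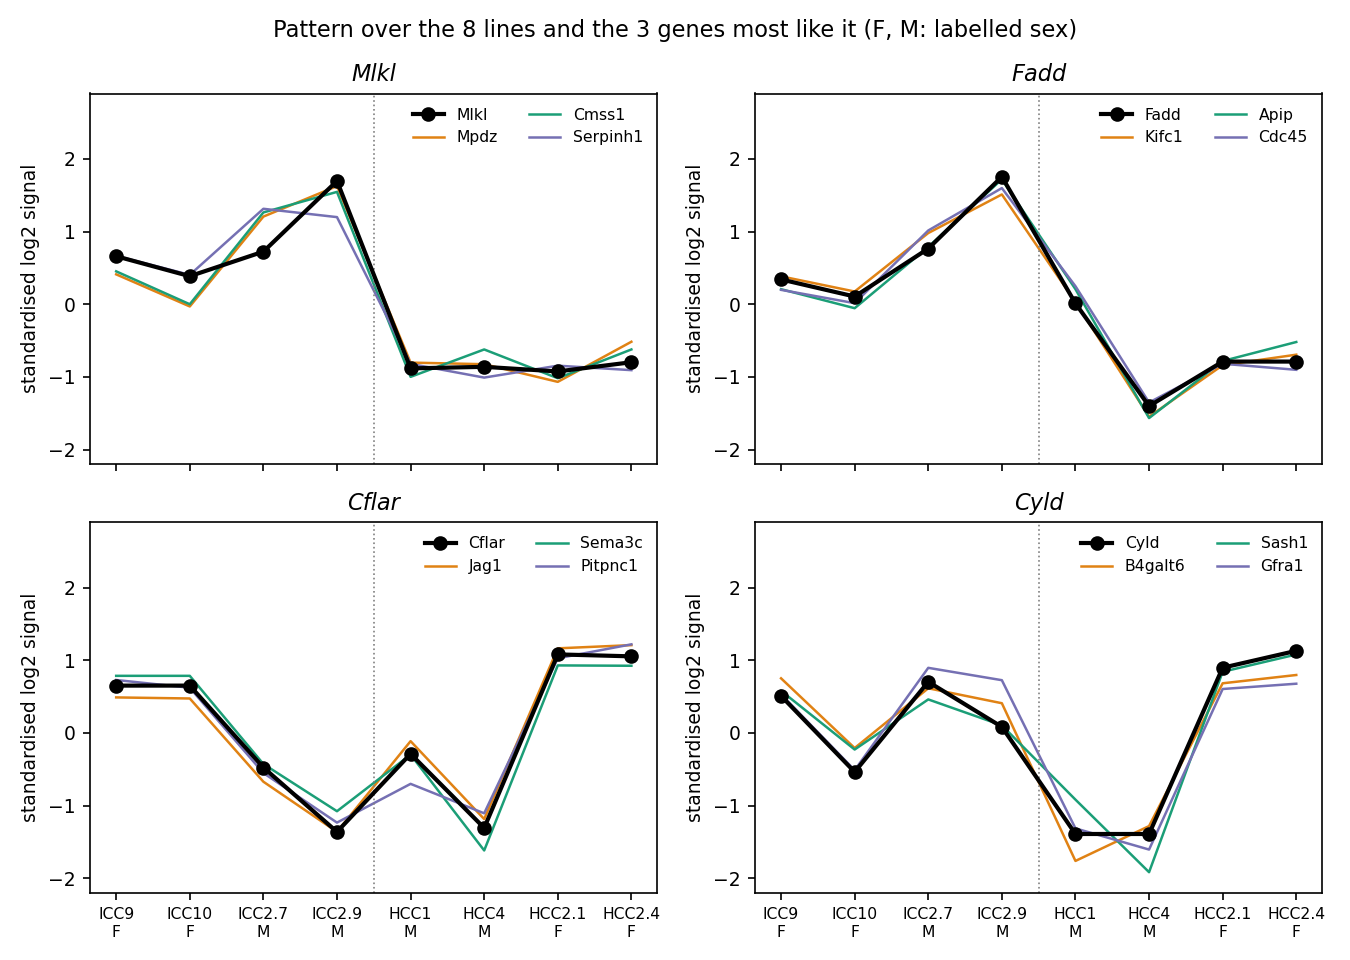
Standardised log2 signal (each gene centred on its mean over the 8 lines and divided by its SD) of Mlkl, Fadd, Cflar and Cyld in black, with the 3 genes most like each in colour; the dotted line parts ICC from HCC lines. Mlkl drops from ICC to HCC lines, Fadd is highest in ICC2.9 and lowest in HCC4, Cflar is high in the 4 female-labelled lines, and Cyld is lowest in HCC1 and HCC4.

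In the related lists the counts between the types are read against all genes, of which 0.261% were called and 14.1% had an unadjusted p under 0.05. Of 29 genes of TNF and death receptor signalling 26 were measured and limma called 0, with 3 at an unadjusted p under 0.05 and a median difference of -0.02, so the counts were near those shares. The TRAIL receptor Tnfrsf10b measured 10.04 to 10.19 in ICC and 10.32 to 10.51 in HCC lines without overlap (-0.29, SE 0.09, adjusted p = 0.19). The kinase Tbk1, which phosphorylates RIPK1, measured 8.06 to 8.49 in ICC and 8.49 to 9.04 in HCC lines, so the types touched (-0.44, SE 0.16, adjusted p = 0.263). The receptor Tnfrsf1a, through which TNF signals, lay between 9.39 and 9.71 in all 8 lines, and Tnf itself between 4.61 and 5.02, below the median gene. Tnfrsf1a and Tnf are given for their role, with their values already seen.

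Of 18 genes of nucleic acid and Toll-like sensing and interferon 16 were measured and limma called 0 between the types, with 1 at an unadjusted p under 0.05 and a median difference of 0.07, against 0.261% and 14.1% of all genes. That gene was Irf9, the DNA-binding part of the interferon-stimulated complex, at 6.48 to 6.91 in ICC and 6.86 to 7.18 in HCC lines (-0.32, SE 0.12, adjusted p = 0.283). Its partner Stat2 differed by -0.45 (SE 0.27, adjusted p = 0.491), with HCC2.1 at 6.96 and HCC2.4 at 6.81 above all other lines.

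Among partners of RIPK3, MLKL and PGAM5 and membrane repair genes, 16 of 18 were measured and limma called 0, with 3 at an unadjusted p under 0.05. The median difference was 0.12, and 4 of the 16 lay higher in every ICC line than in any HCC line, against 4.19% of all genes. Aurka, a mitotic kinase that also binds RIPK3, measured 8.43 to 9.11 in ICC and 7.67 to 8.16 in HCC lines (0.87, SE 0.17, adjusted p = 0.0806). Flot2, a flotillin linked to removal of MLKL from the membrane, measured 9.02 to 9.11 and 8.61 to 8.79 (0.39, SE 0.08, adjusted p = 0.0833). The other 2 were Itpk1, an inositol phosphate kinase linked to MLKL activation, and the mitochondrial fission gene Dnm1l. Itpk1 measured 8.25 to 8.49 in ICC and 7.20 to 8.22 in HCC lines, and Dnm1l 11.07 to 11.17 and 10.90 to 11.02. Itpk1 and Dnm1l were chosen for mention after their values were seen.

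Genes of other death programmes gave counts that say little beside the shares over all genes, 0.261% called and 14.1% at an unadjusted p under 0.05. Of 10 genes of apoptosis execution 7 were measured, with 0 called by limma, 0 at an unadjusted p under 0.05 and a median difference of 0.02. The initiator caspase gene Casp9 differed by 0.14 (adjusted p = 0.57) and the IAP antagonist Diablo by 0.10 (adjusted p = 0.573). All 10 genes of pyroptosis were measured, with 0 called, 2 at an unadjusted p under 0.05 and a median of 0.05. The cytokine Il18 measured 5.54 in ICC9, 4.69 in ICC10, 6.41 in ICC2.7 and 6.82 in ICC2.9, against 4.09 in HCC1, 3.51 in HCC4, 4.76 in HCC2.1 and 4.74 in HCC2.4 (1.59, SE 0.47, adjusted p = 0.191). ICC10 lay inside the HCC range. The inflammasome sensor Nlrp3 differed by 0.25 (adjusted p = 0.33) at levels of 4.20 to 4.81.

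**Figure D5:**
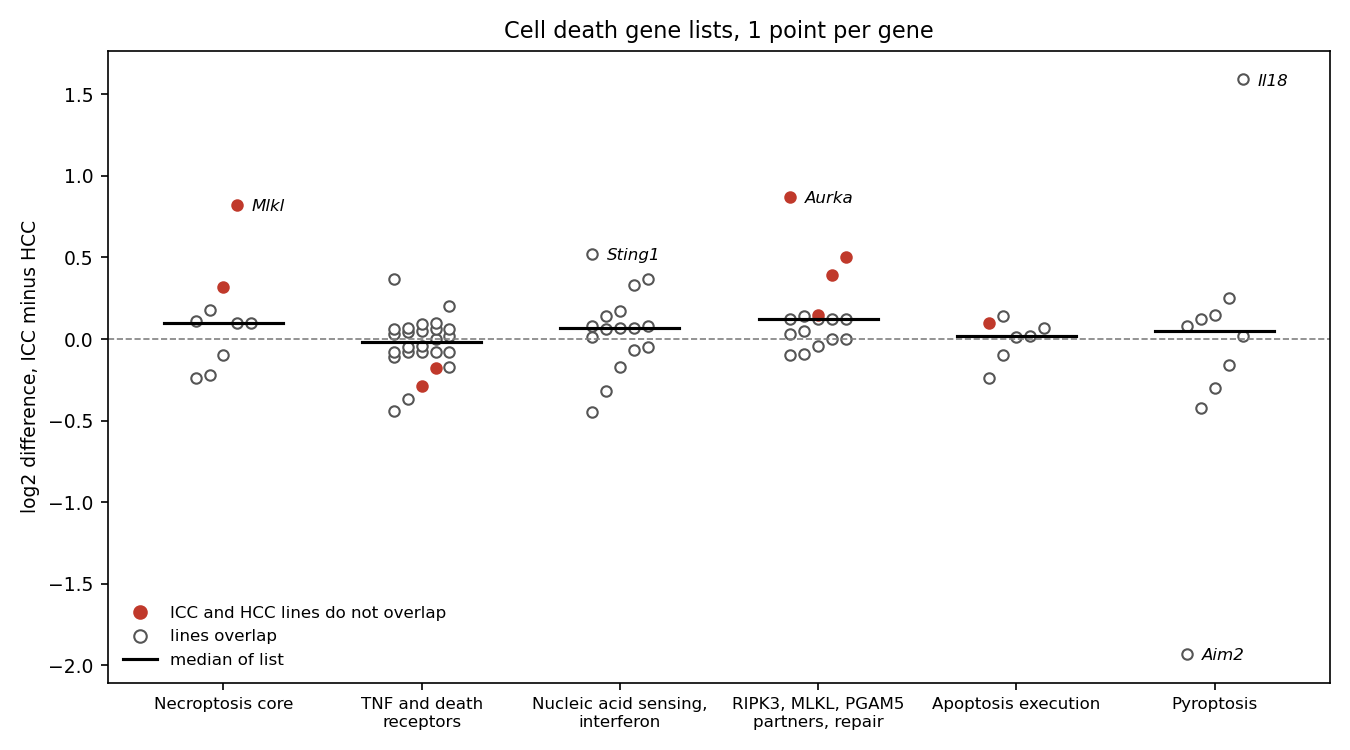
Log2 difference between ICC and HCC lines for each measured gene (points) of the necroptosis genes and 5 related lists, with list medians as bars; filled points are genes whose ICC and HCC lines do not overlap. Medians lie between -0.02 and 0.12, and Mlkl (0.82) stands apart from the other necroptosis genes.

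Between female- and male-labelled lines limma called 5 genes of these lists, each higher in female-labelled lines and named here because of their values: Tlr3 (0.93, adjusted p = 0.0264), the interferon-gamma receptor Ifngr1 (1.25, adjusted p = 0.0138), the caspase Casp6 (0.61, adjusted p = 0.019), the DNA sensor Aim2 (2.48, adjusted p = 0.0229) and Ninj1, which ruptures the membrane of dying cells (0.62, adjusted p = 0.0364). They come from 75 measured genes in 5 lists, of which none was called lower, while 2.94% of all genes were called and 1.48% were called higher. Aim2 reached 8.17 (HCC2.1) and 8.05 (HCC2.4) in the HCC pair but 5.50 in ICC9 and 4.83 in ICC10, and ICC10 lay inside the 3.57 to 5.08 of the male-labelled lines. Ninj1 overlapped between the labelled sexes too, with the male-labelled HCC1 at 7.98 and the female-labelled ICC9 at 7.95. With lines of one type and sex averaged limma called none of the 5. The macrophage marker Cd14 (1.21, adjusted p = 0.0425) and the bile duct keratin Krt19 (2.19, adjusted p = 0.00483), also named for their values, were called in the same direction, and their part in the pattern was not tested. Each was the only 1 called in its list. Of the 8 macrophage and leukocyte markers 3 were lower in female-labelled lines, among them Itgam (-0.19). Of the 4 measured bile duct markers 1 was lower, Krt7 (-0.04).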

How the data were processed

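RNA of 8 clonal mouse lines was hybridised to 1 array each. The authors deposited log2 expression values normalized by RMA with oligo, per the submitters' processing notes; the tool's version is not given in the sources used here, and depth does not apply to arrays, whose number limits the precision. Of 39993 probe sets, 23521 name exactly 1 gene in the platform annotation, 1814 several and 14658 none; the probe set with the highest mean stood for each of 22180 genes. Groups follow the labels. ICC and HCC lines were compared by moderated tests, two-sided, from lmFit and eBayes of limma (version 3.58.1, R 4.3.3), with p-values adjusted after Benjamini and Hochberg across all genes and calls at an adjusted p under 0.05, without covariates; labelled sexes were compared with type in the model, and the difference between the sexes' type differences as an interaction. The fit between the types was tested on simulated data. With the missing direction removed, as in these columns, a larger share of calls was false than with 8 independent lines and exceeded the nominal level. Adjusted p-values between the types are therefore likely too small. The other comparisons were not simulated. Members and lists were chosen with earlier results of these data known. From each related list of cell death genes the text names the 2 genes with the smallest unadjusted p between the types, as none was called; other genes, markers included, were chosen for mention with their values seen. Promoter sequences are from RefSeq (GRCm38.p6). Alternatives changed the eBayes options, gene filter, normalization, array weights, probe set choice, covariates, blocks and lines included; the random block and the averaging for the sex comparison were added after seeing the data.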

Additional observations from a re-analysis of the deposited data

Results flagged for a closer look

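Dixon's test was applied to 54 groups of 4 lines, and in 2 of them 1 line stood apart from the other 3; chance flags about 1 in 20 groups. Both are marker genes of cell types and none is a necroptosis gene. The endothelial marker Pecam1 measured 6.00 in HCC4 against 5.41 to 5.48 in the other HCC lines. The hepatocyte factor Hnf4a measured 5.92 in ICC9 against 5.36 to 5.40 in the other ICC lines. ICC9 is close to a weighted combination of the other lines, HCC2.1 (7.26) and HCC2.4 (7.06) among them. Its Hnf4a value is therefore not independent of theirs and is no separate observation of that clone.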

How the results depend on the processing

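No paired analysis was possible because the line names carry no replicate number shared between the types; the names with a point set male ICC beside female HCC lines and pair no single lines. Limma called 58 genes between the types, but 103 among genes at or above the median level, 12 with the missing direction in the model, 2278 with array weights, 428 with sex as a covariate, 119 with both sex and that direction, 6 with the random block of type and sex, 0 with lines of one type and sex averaged (1170 at an unadjusted p under 0.05), 696 in female-labelled and 200 in male-labelled lines, and 2 to 109 with 1 line left out. Among the necroptosis genes this count was 0 and became 1 (Mlkl) with trend and robust eBayes (difference 0.82, adjusted p = 0.0455), genes at or above the median level (0.82, 0.0395), quantile normalization (0.81, 0.0459), array weights (0.72, 0.00339), sex as a covariate (0.82, 0.0216) and female-labelled lines (0.66, 0.0402), and 0 to 1 with 1 line left out, when the Mlkl difference ran from 0.69 to 0.90. Between the labelled sexes 653 genes were called, but 280 with the missing direction, 334 with the random block, 6 with averaging and 146 to 917 with 1 line left out; for the necroptosis genes the count of 1 (Cflar) became 0 under the first 3 of these, with the Cflar difference at 0.64 in each, and 0 to 1 with 1 line left out, when the Cflar difference ran from 0.55 to 0.72. The interaction called 0 genes, 255 with the missing direction and 0 to 238 with 1 line left out. Differences between types that changed sign were Casp8 in male-labelled lines (-0.16), Cflar with array weights (0.07), Cyld in female-labelled lines (-0.27), Stat2 (0.20) and Itgam (-0.01) in male-labelled lines, and Cd68 (0.28) and Epcam (0.07) in female-labelled lines. With 1 line left out, Cflar ran from -0.28 to 0.05 and Cyld from -0.01 to 0.21 between the types, Ticam1 from -0.05 to 0.12 between the sexes, and the interactions of Cflar from -0.30 to 0.08, Ticam1 from -0.04 to 0.34 and Pgam5 from -0.10 to 0.17. The cause was not tested.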
